A study of Mus musculus with 6 samples.

Results

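The 10 genes followed here mark macrophages and were measured by bulk RNA sequencing of mouse thoracic aorta. They are Adgre1, Cd68, Csf1r, Itgam, Itgb2, Lyz2, Mrc1, C1qa, Cd163 and Lyve1. They were chosen by symbol, with earlier results of these data known. They were matched through their Ensembl identifiers, and all 10 were found among the 52636 genes of the count table. The table held 6 libraries from mice 12 weeks of age. Of these, 4 came from untreated C57BL/6J mice (WT). The other 2 came from Tgfbr1/2iSMCKO mice (KO), in which both receptor genes, Tgfbr1 and Tgfbr2, are floxed and which also carry mT/mG and Myh11-CreERT2. These mice had been injected with tamoxifen (2 mg daily, 5 days) at 11 weeks. The labels give C57BL/6J as the strain of all libraries. Cre is driven by Myh11 in this model and is directed at smooth muscle cells (SMCs), so macrophages are not the cells targeted for deletion. The transgene lies on the Y chromosome, which limits the model to males, and aortas with hemorrhagic lesions were not used. Because the WT mice had no tamoxifen, no floxed allele, no Cre and no reporter, the effects of these differences on the aorta cannot be told apart.

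Macrophages are phagocytes that reside in most tissues, and in the normal artery they lie mainly in the adventitia and the surrounding fat. Their survival depends on the receptor encoded by Csf1r, which binds the growth factors CSF1 and IL-34. Many resident arterial macrophages carry the hyaluronan receptor LYVE1 together with the scavenger receptors CD206 (Mrc1) and CD163, whereas monocytes that arrive from blood carry CCR2. Several of the 10 genes are also active in other cells. Lyve1 is also a gene of lymphatic endothelium, Itgam and Itgb2 are also active in neutrophils and natural killer cells, and Lyz2 is also active in neutrophils.

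Total estimated counts ran from 19650983 to 28860598 per library. The mitochondrial share of counts was 2.62% to 4.44% in WT, and 3.38% in KO-1 against 11.7% in KO-2. Transcripts of the targeted genes overlapped between groups, with 3858 to 5420 normalized counts in WT, 5780 in KO-1 and 4568 in KO-2 for Tgfbr1, and 5327 to 7042, 5784 and 5937 for Tgfbr2. Whole-gene counts include exons that are not deleted and cells without Cre, so these values do not check the KO label. Normalized counts were obtained by dividing by the size factors of DESeq2. In bulk tissue, more cells of a type and more RNA per cell cannot be told apart.

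All 10 macrophage genes had higher normalized counts in both KO libraries than in every WT library, a separation seen in 17.9% of the 17070 genes tested. By the thresholds of the study (adjusted DESeq2 p-value under 0.05 and fold change above 2), 6 of the 10 were called higher, namely Itgam, Itgb2, Mrc1, Cd68, Lyve1 and Adgre1, and 0 were called lower. Among all genes tested, 3.54% were called higher and 2.1% lower, 5.64% together. Without the 2-fold threshold, 9 of the 10 passed the adjusted p-value in the higher direction, against 5.71% of all genes tested (4.69% in the lower direction, 10.4% together), and Lyz2 did not pass. The median log2 fold change was 1.15 for the 10 genes and 0.01 for all genes tested. Without KO-2 the genes called higher were 3 (Adgre1, Itgam and Mrc1), and without KO-1 they were 5 (those 6 without Adgre1). In edgeR, Cd68 (adjusted p-value 0.0776), Csf1r (0.0856), Cd163 (0.0718) and Lyz2 (0.141) did not pass the test.

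**Figure D1:**
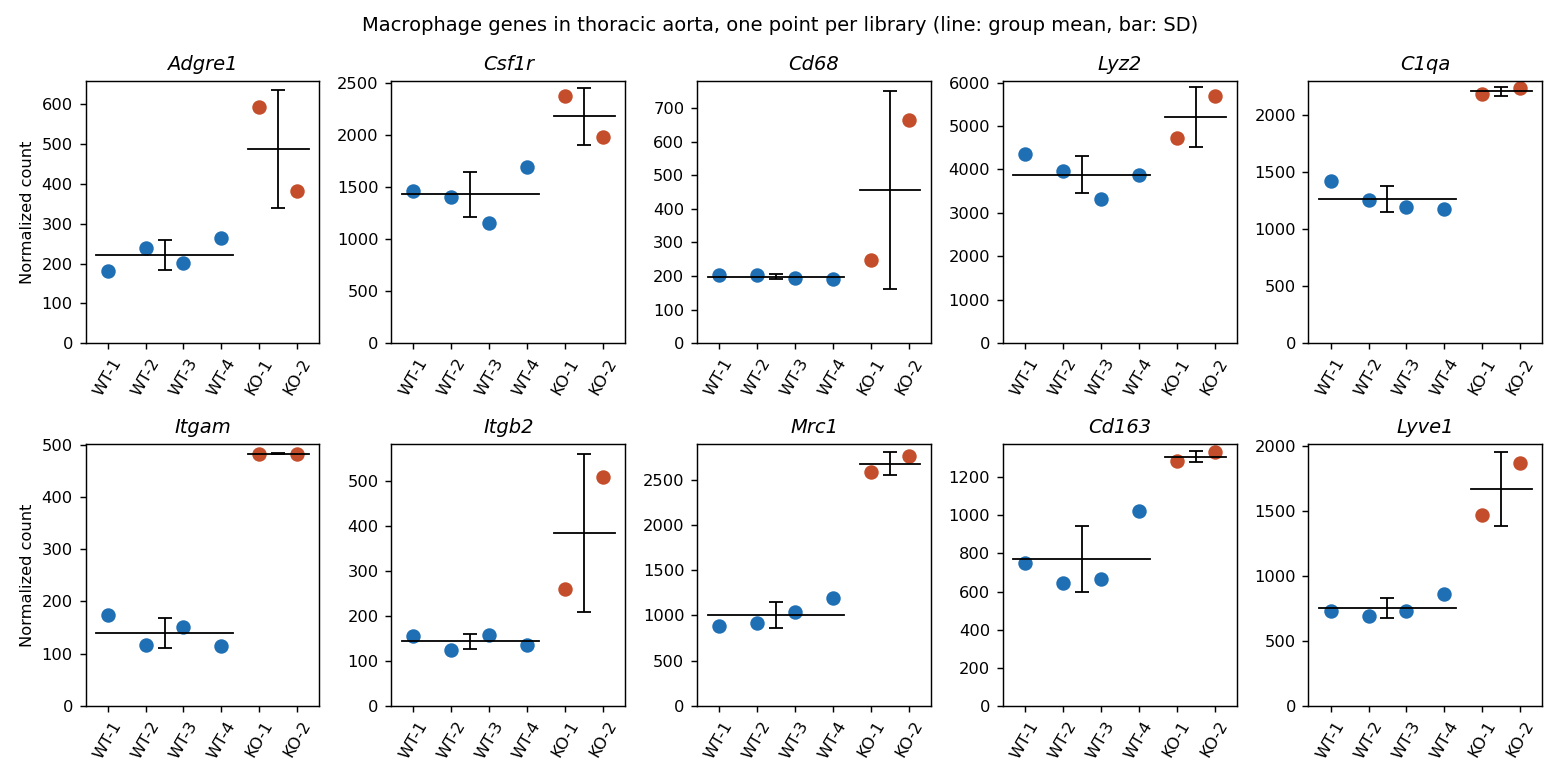
Normalized counts (vertical axis, starting at 0) of the 10 macrophage genes in each of the 4 WT and 2 KO libraries (horizontal axis); horizontal lines are group means and bars are SD. In all 10 panels both KO points lie above every WT point, and for Cd68, Itgb2 and Adgre1 the KO points lie far apart.

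Levels of the genes were first compared within WT, on the scale of counts per kilobase of exon in 1000000 counts of a library, since longer transcripts give more reads. Lyz2, which encodes the bacteriolytic enzyme lysozyme M, had the highest level, 125 ± 13.8 (SD, n = 4), followed by C1qa, which encodes a chain of the complement component C1q, at 51.6 ± 4.22 (SD, n = 4). Lyve1 (10.9 ± 1.17, SD, n = 4) and Csf1r (10.5 ± 1.71, SD, n = 4) came next and overlapped. They were followed by Mrc1 (6.70 ± 0.968, SD, n = 4), Cd68 (6.66 ± 0.272, SD, n = 4) and Cd163 (6.00 ± 1.40, SD, n = 4), each of which overlapped its neighbor in this order. Adgre1 (2.90 ± 0.540, SD, n = 4), Itgb2 (1.99 ± 0.190, SD, n = 4) and Itgam (1.17 ± 0.221, SD, n = 4) were lowest and did not overlap. In KO the order of the mean levels was the same except that Mrc1 (18.2) stood above Csf1r (16.5). Taken as a share of the summed level of the 10 genes in a library, Lyz2 made up 53.6% to 57.4% in WT, 45.9% in KO-1 and 47.8% in KO-2. The share of Mrc1 was 2.40% to 3.49% in WT, 5.20% in KO-1 and 4.79% in KO-2, that of Lyve1 was 4.35% to 5.54%, 6.46% and 7.09%, and that of Itgam was 0.427% to 0.641%, 1.23% and 1.06%. For these 4 genes the shares of the groups did not overlap, and for the other 6 they did.

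Among genes of macrophage identity, Adgre1 (ENSMUSG00000004730.14, chromosome 17, 57358691 to 57483527) encodes F4/80, the surface receptor long used to stain mouse macrophages. It had 180.1, 238, 200.7 and 265.2 normalized counts in WT-1 to WT-4, 591.8 in KO-1 and 382.3 in KO-2. The lowest KO value was above the highest WT value, and KO-1 was the higher of the KO libraries. The log2 fold change was 1.14 ± 0.28 (SE), with an adjusted DESeq2 p-value of 0.00101. Without KO-1 it was 0.79, with an adjusted DESeq2 p-value of 0.0839.

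Csf1r (ENSMUSG00000024621.15, chromosome 18, 61100598 to 61132149) had 1461, 1411, 1159 and 1695 normalized counts in WT, 2377 in KO-1 and 1986 in KO-2. The groups did not overlap, but the gap between WT-4 and KO-2 was smaller than the spread within WT. It rose by a log2 fold change of 0.61 ± 0.20 (SE), under the 2-fold threshold, and the adjusted DESeq2 p-value was 0.0301. That p-value rose to 0.192 without KO-1, 0.0715 without WT-1, 0.101 without WT-2 and 0.0624 without WT-3. Csf1r overlaps exons of Hmgxb3 on the opposite strand over 873 of its 5774 exon bases, and it is not stated whether counting used strand. Hmgxb3 had a log2 fold change of -0.25 (adjusted DESeq2 p-value 0.516), and the summed normalized counts of the pair were still higher in both KO libraries than in every WT library.

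Cd68 (ENSMUSG00000018774.13, chromosome 11, 69664213 to 69666153) encodes a glycoprotein of lysosome membranes. Its WT values were the tightest of the 10 genes, at 203.2, 203.9, 192.7 and 190 normalized counts, and the highest was 1.07 times the lowest. KO-1 had 248.9 and KO-2 had 665, so that the KO libraries differed from each other by 2.67 times. KO-1 was at 1.26 times the WT mean and KO-2 at 3.36 times. The log2 fold change of 1.21 (SE 0.35, adjusted DESeq2 p-value 0.00914) was 0.34 without KO-2, with an adjusted DESeq2 p-value of 0.546.

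Lyz2 (ENSMUSG00000069516.8, chromosome 10, 117277331 to 117282321) had 4351, 3969, 3329 and 3880 normalized counts in WT, 4714 in KO-1 and 5701 in KO-2. Its log2 fold change of 0.42 (SE 0.18, adjusted DESeq2 p-value 0.119) was the smallest of the 10 and did not pass the test, with a 95% interval from 0.07 to 0.77. Without KO-1 the log2 fold change was 0.56 and the adjusted DESeq2 p-value 0.0361. The similar gene Lyz1 had 65.8 to 159.3 normalized counts in WT, 47.8 in KO-1 and 158.6 in KO-2, and reads can be split between them.

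C1qa (ENSMUSG00000036887.5, chromosome 4, 136895917 to 136898803) encodes one of the C1q chains, which macrophages produce and which tag debris for uptake. It had 1428, 1256, 1199 and 1181 normalized counts in WT, 2184 in KO-1 and 2236 in KO-2. Both KO libraries were far above WT and close to each other. C1qa rose by 0.80 on the log2 scale (SE 0.17, adjusted DESeq2 p-value 8.29e-05), which is a 1.75-fold difference. The other C1q chains, C1qb (0.72, adjusted DESeq2 p-value 0.0442) and C1qc (0.56, 0.0165), also passed the adjusted p-value and not the 2-fold threshold. For C1qb KO-1 (1534) lay inside the WT range of 1151 to 1580 and KO-2 (2721) above it. Without KO-2 neither of these chains passed, with adjusted DESeq2 p-values of 0.635 for C1qb and 0.121 for C1qc, and C1qb did not pass without WT-2 (0.146), WT-3 (0.126) or WT-4 (0.13) either.

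Among adhesion genes, Itgam (ENSMUSG00000030786.18, chromosome 7, 128062640 to 128118491) encodes CD11b, the α chain of the integrin Mac-1. It had 173.5, 116.7, 151.8 and 114.9 normalized counts in WT, 483.3 in KO-1 and 483.1 in KO-2. Its log2 fold change of 1.80 was the largest of the 10 genes (SE 0.27, adjusted DESeq2 p-value 2.05e-09, 3.47-fold), and each KO library on its own was at 3.46 times the WT mean. Another gene model on the same strand, Gm49368, shares 3450 of the 5024 exon bases of Itgam and was listed at 31.4 to 110.7 normalized counts in WT, 0 in KO-1 and 261.8 in KO-2, so the division of reads between the 2 models is uncertain. With both summed, values ran from 148.2 to 225.5 in WT and were 483.3 in KO-1 and 744.9 in KO-2, and the log2 fold change was 1.62 (SE 0.28, adjusted DESeq2 p-value 4.28e-07).

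Itgb2 (ENSMUSG00000000290.13, chromosome 10, 77530252 to 77565708) encodes CD18, the β chain that pairs with CD11b and with the other leukocyte α chains. It had 154.9, 124.8, 158.8 and 135.7 normalized counts in WT, 261 in KO-1 and 510.1 in KO-2, so that KO-2 had 1.95 times the value of KO-1. Itgb2 rose by 1.42 on the log2 scale (SE 0.32, adjusted DESeq2 p-value 0.000246). Without KO-2 the log2 fold change was 0.87, with an adjusted DESeq2 p-value of 0.0731. Of the 10 genes for β2 integrins and their ligands, Itgad had 0 counts in every library, and 4 of the 9 tested passed the adjusted p-value, all higher, and 1 passed without KO-2. Beside Itgam and Itgb2 these were Itgal, the α chain of LFA-1, and Icam1, a ligand of LFA-1 and Mac-1. Itgal had 24.2 to 42.9 normalized counts in WT, 59.9 in KO-1 and 141.4 in KO-2 (log2 fold change 1.72, adjusted DESeq2 p-value 0.0115). It did not pass without KO-2 (0.427) or without WT-2 (0.0527). Icam1 had a log2 fold change of 0.67 (adjusted DESeq2 p-value 0.00767, and 0.0935 without KO-2).

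Among endocytic and scavenger receptors, Mrc1 (ENSMUSG00000026712.3, chromosome 2, 14229392 to 14332057) encodes CD206, the mannose receptor. It had 880.9, 912.4, 1044 and 1188 normalized counts in WT, 2586 in KO-1 and 2764 in KO-2. The KO libraries differed by 1.07 times and both were far above the highest WT library. Of the 10 genes Mrc1 had the smallest adjusted DESeq2 p-value, 2.15e-11, with a log2 fold change of 1.41 and a standard error of 0.19.

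Cd163 (ENSMUSG00000008845.9, chromosome 6, 124304656 to 124330527) encodes the receptor that takes up hemoglobin bound to haptoglobin. It had 749.1, 647.5, 666.1 and 1025 normalized counts in WT, 1287 in KO-1 and 1330 in KO-2. The groups did not overlap, and WT-4 stood above the other WT libraries. The log2 fold change was 0.76 (SE 0.23, adjusted DESeq2 p-value 0.0136), under the 2-fold threshold. The adjusted DESeq2 p-value exceeded 0.05 without KO-1 (0.0575), KO-2 (0.123), WT-1 (0.0515), WT-2 (0.0701) or WT-3 (0.0531), and was 1.47e-05 without WT-4.

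Lyve1 (ENSMUSG00000030787.4, chromosome 7, 110850607 to 110863239) had 731.5, 689.7, 729 and 865.6 normalized counts in WT, 1471 in KO-1 and 1873 in KO-2. Both KO libraries were well above WT. The log2 fold change was 1.15 (SE 0.20, adjusted DESeq2 p-value 3.98e-07). Without KO-2 it was 0.98, just under the 2-fold threshold, with an adjusted DESeq2 p-value of 0.000259. Lymphatic endothelium is another known source of Lyve1 transcripts. Of 6 of its genes, 4 were called higher (Prox1, Flt4, Mmrn1 and Ccl21a), Reln did not pass, and Pdpn was lower by the adjusted p-value. Without KO-2 the adjusted DESeq2 p-value was 0.1 for Flt4, 0.0599 for Mmrn1 and 0.769 for Ccl21a, and Prox1 passed in that fit. Prox1, a transcription factor that specifies lymphatic endothelium, had 6.3 to 8 normalized counts in WT, 124.4 in KO-1 and 55.3 in KO-2. Prox1 was thus higher in KO-1, whereas the other 5 of the 6 genes were, like Lyve1, higher in KO-2. The summed normalized counts of the 6 genes were 441.6 to 649.1 in WT, 789.9 in KO-1 and 1314 in KO-2, and their part in the Lyve1 result was not tested.

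**Figure D2:**
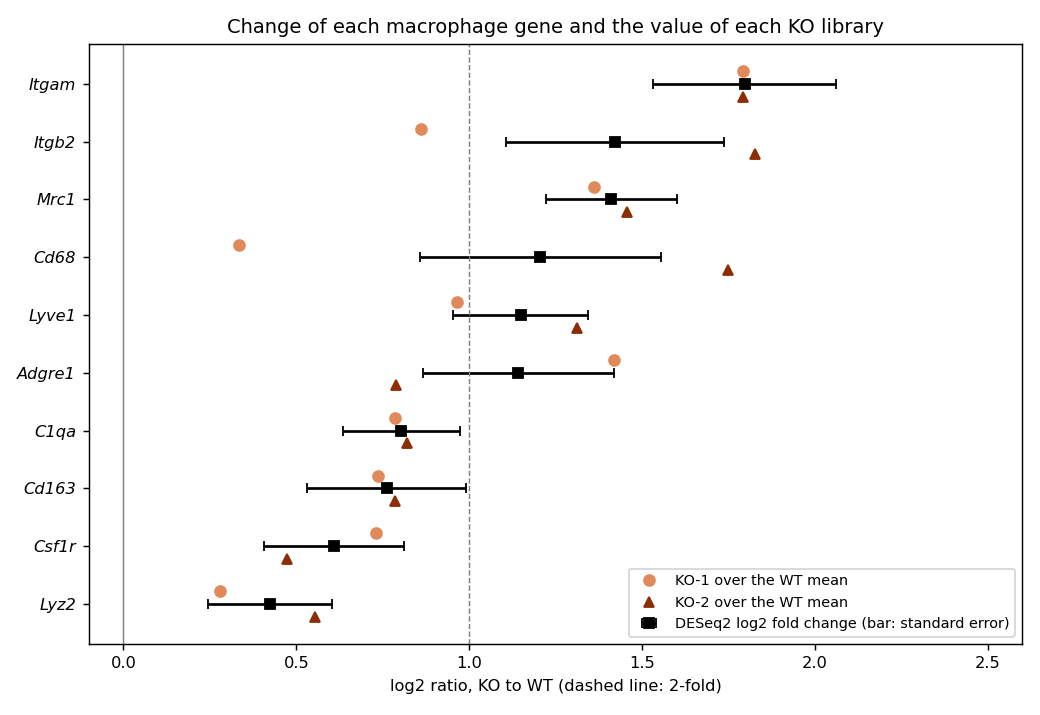
DESeq2 log2 fold change of each macrophage gene (black squares, bars are standard errors) and the log2 ratio of each KO library to the WT mean (circles KO-1, triangles KO-2). Itgam, Mrc1, C1qa and Cd163 have both KO libraries at nearly the same place, and Cd68 has KO-1 at 0.33 and KO-2 at 1.75. Itgam is drawn without Gm49368, and the summed normalized counts of that pair were 483.3 in KO-1 and 744.9 in KO-2.

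Sequence before the transcription start is shown for the genes with the largest log2 fold change (Itgam) and the smallest adjusted p-value (Mrc1), and for Lyz2, which did not pass. RefSeq promoter sequence (GRCm38.p6) was examined for 5 of the 10 genes. Adgre1, Csf1r, Itgb2, C1qa and Lyve1 were left out, and the counts out of 5 below do not cover them. Each line gives the 250 bases before the start that RefSeq lists, read 5′ to 3′ on the strand of the gene, with capitals marking GAGGAA or its reverse complement, a core of the sites bound by PU.1 (Spi1), the transcription factor that directs the macrophage lineage. The positions are chr7:128062390-128062639 on the plus strand for Itgam, chr2:14229164-14229413 on the plus strand for Mrc1 and chr10:117282273-117282522 on the minus strand for Lyz2. The gene starts given above come from another annotation, by which 22 bases of the Mrc1 window and 49 bases of the Lyz2 window lie inside the gene.
Itgam: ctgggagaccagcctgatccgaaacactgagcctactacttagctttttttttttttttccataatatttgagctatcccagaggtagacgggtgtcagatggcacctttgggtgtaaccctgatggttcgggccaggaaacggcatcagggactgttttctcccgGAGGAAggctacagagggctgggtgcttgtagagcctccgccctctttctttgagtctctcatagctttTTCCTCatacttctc
Mrc1: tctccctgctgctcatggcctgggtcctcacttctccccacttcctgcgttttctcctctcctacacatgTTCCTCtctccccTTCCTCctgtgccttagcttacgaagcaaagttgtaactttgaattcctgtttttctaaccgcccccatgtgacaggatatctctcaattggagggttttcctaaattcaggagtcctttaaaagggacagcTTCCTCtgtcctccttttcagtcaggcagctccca
Lyz2: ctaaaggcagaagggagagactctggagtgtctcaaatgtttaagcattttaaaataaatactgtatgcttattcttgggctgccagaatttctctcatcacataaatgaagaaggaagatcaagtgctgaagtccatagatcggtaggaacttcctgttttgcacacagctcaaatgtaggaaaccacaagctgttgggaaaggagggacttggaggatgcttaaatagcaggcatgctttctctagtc
The letters occurred 2 times in the Itgam window, 3 times in that of Mrc1 and 0 times in that of Lyz2. Of the 5 windows, 3 held them (Cd68 was the other one, and Cd163 had no match), against 23.3% of 32851 promoter windows of the same length, both strands searched. The TATA box letters TATAAA were in 0 of the 5 windows and in 12.4% of all. The letters TGANTCA of AP-1 sites were in 1 of 5 and 6.75%. GGAAGT, a core of sites bound by the ETS family, to which PU.1 belongs, was in 2 of 5 and 19.7%. The C/EBP letters TTNCNNAA were in 5 of 5, Lyz2 included, and 36.8%. A match is a run of letters and not a measured binding site.

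Other genes of macrophages were compared from 2 lists, chosen like the following ones with earlier results of these data known. The counts of these and the following lists stand beside the same shares of all genes tested, 5.71% past the adjusted p-value in the higher direction and 3.54% called higher. Of the 17070 genes tested, 3788 had an unadjusted DESeq2 p-value under 0.05. By edgeR with a low-count filter, 551 of the genes tested passed the adjusted p-value in the higher direction and 445 in the lower. Of 30 genes expressed by most macrophages, 14 rose by the adjusted p-value, 13 of them by more than 2-fold, 0 fell and 16 did not pass, with a median log2 fold change of 0.71. Cd53, a leukocyte tetraspanin, had 136.2, 105.1, 114.8 and 154.5 normalized counts in WT, 343.7 in KO-1 and 445 in KO-2 (log2 fold change 1.63, adjusted DESeq2 p-value 3.96e-07). Fcgr2b, the inhibitory receptor for IgG, had 195.7 to 239.1 in WT, 555.4 in KO-1 and 532.2 in KO-2 (1.37, 4.28e-08). Cd33, a receptor for sialic acid (1.32, 4.6e-06), and Cybb, the catalytic subunit of the phagocyte NADPH oxidase (1.19, 3e-06), rose as well. The pan-leukocyte gene Ptprc, which encodes CD45 and was chosen for mention after its values were seen, had a log2 fold change of 1.11 (adjusted DESeq2 p-value 0.00674). Without KO-2 the genes of this list past the adjusted p-value in the higher direction were 7, and without KO-1 they were 13.

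The second list held 22 genes typical of resident macrophages, of which 21 were tested. By the adjusted p-value 10 rose, 8 of them by more than 2-fold, 0 fell and 11 did not pass, with a median log2 fold change of 0.94. F13a1, the A chain of coagulation factor XIII, had 1607, 1577, 1522 and 1655 normalized counts in WT, 3280 in KO-1 and 3652 in KO-2 (log2 fold change 1.12, adjusted DESeq2 p-value 9.1e-11). Mgl2, a lectin for galactose-type sugars, had 227.7 to 332 in WT, 755 in KO-1 and 1139 in KO-2 (1.67, 7.1e-09). Siglec1, which encodes CD169, had 80.2 to 143.7 in WT, 437.1 in KO-1 and 313.4 in KO-2 (1.70, 9.5e-06). Ednrb, an endothelin receptor that other cells of the aorta also express, rose by 1.75 on the log2 scale (8.68e-06). The scavenger receptor gene Marco, also chosen after its values were seen, was at or near 0, with 4 counts in WT-3 and 0 in every other library. Without KO-2 the number past the adjusted p-value in the higher direction was 8, and without KO-1 it was 10.

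**Figure D3:**
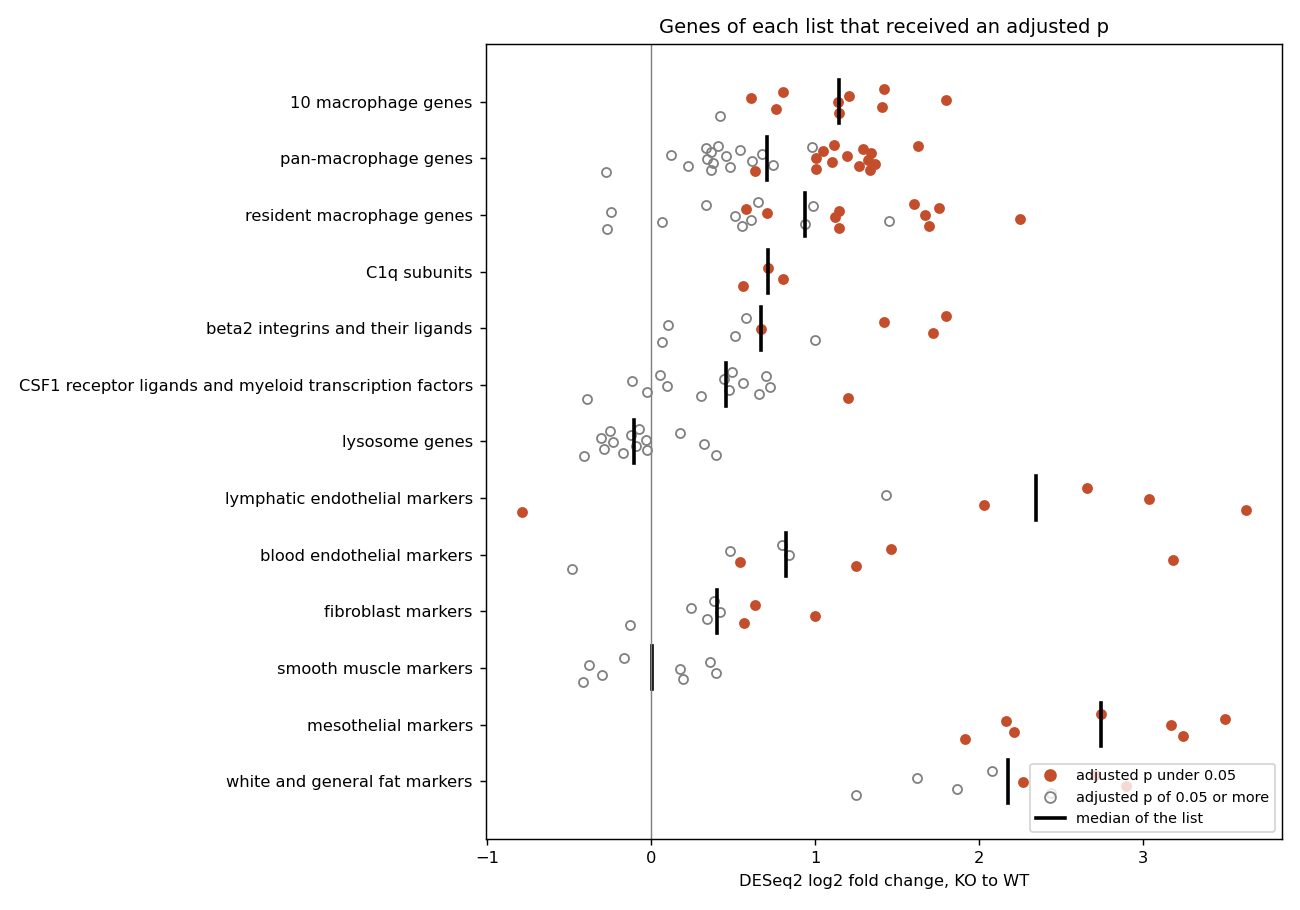
DESeq2 log2 fold change (horizontal axis) of each gene with an adjusted p-value, by gene list; filled points passed an adjusted p-value of 0.05, open points did not, and black bars are list medians. The median is 1.15 for the 10 macrophage genes, 0.71 and 0.94 for the other macrophage lists, and -0.11 for lysosome genes.

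Of 15 genes for CSF1 receptor ligands, related receptors and myeloid transcription factors, 14 were tested, and Csf2rb, the shared β chain of the receptor for GM-CSF, was the 1 past the adjusted p-value (log2 fold change 1.20, adjusted DESeq2 p-value 0.0196). It did not pass without KO-2 (0.371) or WT-1 (0.052), nor in edgeR (0.052 with a low-count filter). The median of the list was 0.46 on the log2 scale. Values for 2 further genes are given although the rule did not select them. Csf1 itself had 2322 to 2842 normalized counts in WT, 2674 in KO-1 and 2809 in KO-2, with overlapping groups. Spi1 had 129.5 to 151.6 in WT, 170 in KO-1 and 283.9 in KO-2 (log2 fold change 0.70, adjusted DESeq2 p-value 0.126).

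Lysosome genes, which are active in all cells of the aorta, were compared as the compartment in which the CD68 protein lies. Of 14, 0 passed the adjusted DESeq2 p-value, 0 passed edgeR's, and 2 had an unadjusted p-value under 0.05 in DESeq2. Their median log2 fold change was -0.11. Their summed normalized counts were 114171 to 123909 in WT, 106747 in KO-1 and 102617 in KO-2. Both KO libraries lay below every WT library for 5 of the 14 and above every WT library for 2. Among all genes tested these shares were 16.4% and 17.9%.

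Genes of monocytes and of inflammatory macrophages formed a further list. Of 18, 15 were tested, 4 passed in the higher direction, Fn1 passed in the lower and 10 did not pass. The median log2 fold change of the list was 0.9995, and 9 of the 15 had an unadjusted DESeq2 p-value under 0.05. Median log2 ratios to the WT mean were 0.50 in KO-1 and 1.23 in KO-2. Without KO-2, 0 of the 15 passed in the higher direction in DESeq2 and Fn1 passed in the lower; by edgeR in all 6 libraries 2 passed in the higher direction. Ccr2, the receptor that brings monocytes into tissue, had 120.8, 40.4, 65.9 and 57.4 normalized counts in WT, 116.1 in KO-1 and 470.8 in KO-2. KO-1 lay inside the WT range, and the log2 fold change of 2.04 (adjusted DESeq2 p-value 0.00269) was 0.72 without KO-2, with an adjusted DESeq2 p-value of 0.602. Ly6c2, a gene of classical monocytes, had at most 3 counts in each WT library, and 12.1 normalized counts in KO-1 and 63.9 in KO-2. Ly6c1, which is in addition expressed by endothelium, also passed, and had an adjusted DESeq2 p-value of 0.0979 without KO-2. Fn1, which encodes fibronectin and is made mostly by SMCs and fibroblasts in this tissue, fell by 0.75 on the log2 scale (adjusted DESeq2 p-value 0.000115). The following inflammatory genes are given although their values had been seen. Il1b (10.8 to 18.7 in WT, 17.5 in KO-1 and 19.7 in KO-2) and Nos2 (0 in every WT library, 3 in KO-1 and 20.9 in KO-2) were near the limit of detection, and Il6 had 0 counts in all libraries but KO-1.

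**Figure D4:**
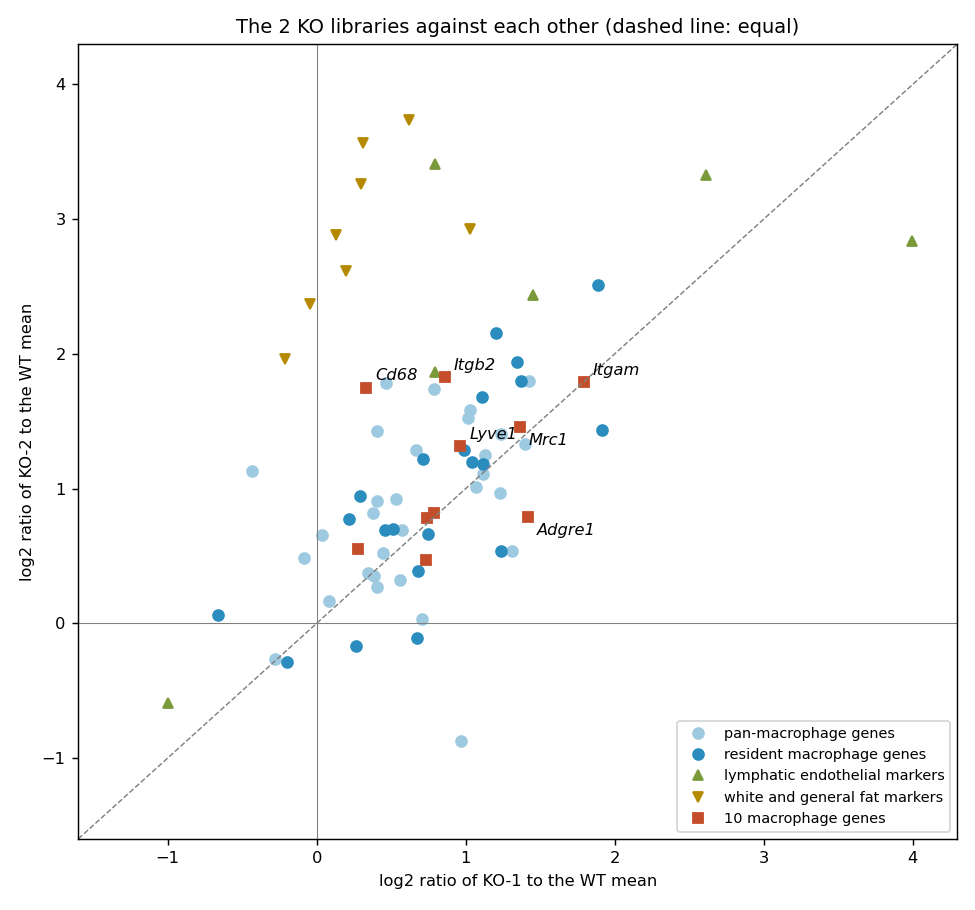
Log2 ratio of KO-1 (horizontal axis) and KO-2 (vertical axis) to the WT mean for genes of 5 lists; the dashed line marks equal values. The 10 macrophage genes (red squares) lie at positive values on both axes, 7 of them higher in KO-2, and all 8 fat genes lie above the dashed line.

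Markers of other leukocytes were examined because several of the 10 genes are shared with them. The neutrophil genes Ly6g, Mpo, Elane and Camp had 0 counts in all 6 libraries, where a count of 0 allows up to 3. Of 12 neutrophil genes 6 were tested, and S100a8 and Csf3r were called higher, the latter also a gene of monocytes, while 0 passed without KO-1 and 1 without KO-2. S100a8 had 0 to 18 normalized counts in WT, 32.6 in KO-1 and 88.5 in KO-2, and without KO-2 its adjusted DESeq2 p-value was 0.52. It was also above 0.05 without KO-1 (0.0638), WT-1 (0.0907) or WT-4 (0.0903). Csf3r had 24 to 37.7, 94.8 and 65.1 normalized counts, and its adjusted DESeq2 p-value was 0.256 without KO-1, 0.0599 without WT-3 and 0.0565 without WT-4. The summed neutrophil list was 39.9 to 85.3 normalized counts in WT, 198 in KO-1 and 281.5 in KO-2, and its part in the Itgam, Itgb2 and Lyz2 values was not tested. Of the lymphocyte genes 0 of 7 tested passed the adjusted DESeq2 p-value, 0 passed edgeR's and 4 had an unadjusted p-value under 0.05 in DESeq2. Their sum was 28.2 to 86.8 in WT, 121.4 in KO-1 and 400.7 in KO-2. Dendritic cell genes had 0 of 7 past the adjusted DESeq2 p-value, 0 past edgeR's and 3 with an unadjusted p-value under 0.05, and mast cell genes 0 of 7, 0 and 1. Median log2 fold changes were 2.72 for neutrophil, 2.39 for lymphocyte, 1.71 for dendritic cell and 0.45 for mast cell genes. In the same order, median log2 ratios to the WT mean were 1.93, 0.95, 0.58 and -0.11 in KO-1. In KO-2 they were 3.05, 2.70, 2.27 and 0.85.

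Genes of other cells of the vessel and its surroundings also differed between the groups. Of 8 blood endothelial genes 4 passed in the higher direction, and their sum was 12730 to 22887 normalized counts in WT, 32431 in KO-1 and 31378 in KO-2. All 7 mesothelial genes were called higher, with a sum of 237.1 to 506.3 in WT, 1003 in KO-1 and 3051 in KO-2. Fat genes stood apart in KO-2, with 3022 to 5780 in WT, 6116 in KO-1 and 42063 in KO-2 for 8 white and general fat genes, and 1109 to 1465, 3891 and 14339 for 7 brown fat genes. Red blood cell genes summed to 859.3 to 5990 in WT, 11076 in KO-1 and 61684 in KO-2. Cardiac muscle genes stood apart in KO-1, with 3000.3 to 4238 in WT, 27809 in KO-1 and 3921 in KO-2. By contrast, 0 of 8 smooth muscle genes passed the adjusted DESeq2 p-value, 0 passed edgeR's and 4 had an unadjusted p-value under 0.05 in DESeq2, and 3 of 8 fibroblast genes passed, all higher and none by more than 2-fold. By edgeR in all 6 libraries, 4 mesothelial, 4 red blood cell, 4 brown fat and 3 lymphatic genes passed in the higher direction. So did 3 blood endothelial, 2 fibroblast, 2 cardiac muscle and 1 white fat genes. Median log2 ratios of KO-1 and KO-2 to the WT mean were 1.66 and 3.40 for mesothelial and 2.21 and 4.17 for red blood cell genes. They were 0.65 and 4.65 for brown fat, 1.12 and 2.64 for lymphatic and 0.25 and 2.90 for white fat genes. For blood endothelial genes they were 0.76 and 0.85, for fibroblast genes 0.50 and 0.42, and for cardiac muscle genes 4.58 and 0.18. The part that fat, blood, mesothelium or lymphatic vessels had in the macrophage values was not tested. Without KO-2, Adgre1, Csf1r, Itgam, Mrc1, C1qa and Lyve1 passed the adjusted p-value, and Cd68, Itgb2, Cd163 and Lyz2 did not. KO-1, which stays in that fit, was itself above every WT library in the sums of fat, mesothelial, red blood cell, cardiac muscle and blood endothelial genes.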

How the data were processed

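RNA of whole thoracic aorta was sequenced in 6 libraries, and the authors trimmed reads with Trim Galore, aligned them to GRCm38 with HISAT2 and quantified GENCODE genes with StringTie. Each deposited value is an estimated count for a gene, a whole number that was not scaled for depth. How coverage became counts is not given in the sources used here. Columns were matched to WT-1 to WT-4, KO-1 and KO-2 from the number ending each column code and the 4 against 2 columns per code, an inference. The mice are described as separate animals, with 4 and 2 per group.

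KO was compared with WT in DESeq2 1.42.0 (R 4.3.3) with group as the only term, and genes past 2-fold with p under 0.05 after Benjamini-Hochberg adjustment were called. Of 52636 genes, 27151 had no counts and 17070 received an adjusted p-value. Coordinates are GRCm38, and 52403 identifiers matched the annotation. An exact permutation test of 4 against 2 cannot go below p = 0.0667 and was not used. Alternatives included edgeR 4.0.16, other scalings and filters, a replicate block and leaving out each library. Scripts were tested on simulated data. The 10 genes and the lists (22 in all) were chosen with earlier results of these data known. Named from each other list were up to 4 genes with the smallest adjusted p-values under 0.05, and defining markers of other cell types at or under 3 counts in every library. Some genes of the lists are not reported here by name.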

Additional observations from a re-analysis of the deposited data

Results flagged for a closer look

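Among 61 groups of WT values checked for a library far from the others, 1 stood apart, where chance would give about 3.05. Mmrn1, a gene of lymphatic endothelium, had 61.91 normalized counts in WT-3, whereas the other WT libraries had 10.98 to 17.06, so that the gap made up 0.881 of the range. In KO it had 160.9 in KO-1 and 264.3 in KO-2, both above WT-3.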

How the results depend on the processing

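In up to 14 other fits, no log2 fold change of the 10 genes or of the genes named by the rule reversed where a fit gave a value, and other genes mentioned were not followed across fits. The genes called between KO and WT numbered 962 in DESeq2, 633 in edgeR with a low-count filter, 114 when tested against a 2-fold change, 561 with a replicate block, and 636 to 1284 when 1 library was left out. Of the 10 macrophage genes, the 6 called higher became 0 against a 2-fold change, 3 with the replicate block (Itgam, Mrc1 and Lyve1) and 3 to 6 when 1 library was left out. The 9 past the adjusted p-value became 0, 3 and 6 to 9. The 14 pan-macrophage genes became 9 in edgeR with and without the filter, 0 against a 2-fold change, 8 with the block and 7 to 14, and the 10 resident macrophage genes became 0 against a 2-fold change, 4 with the block and 8 to 10. A test against a 2-fold change asks for more than a difference from 0. Labels number the libraries without saying what the number means, and the block stands for a shared number only. Deviations of libraries with equal numbers had r = -0.073 and 0.00586 over 12591 genes. With 2 KO libraries the deviations of KO-1 and KO-2 mirror each other, so these values cannot decide whether equal numbers share a batch. WT-3 and WT-4 have no KO library of the same number and add nothing to the group difference in the block fit. With 2 KO libraries, a fit without 1 of them assumes that the other varies as WT does.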

Other observations

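Of 8 immediate early genes, which respond within minutes to handling of tissue, 3 fell by the DESeq2 adjusted p-value (Fosb, Atf3 and Nr4a1), 2 of them by more than 2-fold, and 5 did not pass. Atf3 did not pass in edgeR (adjusted p-value 0.0714) or, in DESeq2, without KO-2 (0.161). The list summed to 15016 to 29300 normalized counts in WT, 9594 in KO-1 and 14212 in KO-2. Dendritic cell genes summed to 521 to 597.5 in WT, 523.6 in KO-1 and 619.5 in KO-2, and mast cell genes to 555.5 to 1114 in WT, 675.3 in KO-1 and 1399 in KO-2.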
